A study of Mus musculus with 171 samples.

Results

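The genes described here are the nuclear-encoded subunits of respiratory complex I in cells of early mouse embryos. They were taken from the gene symbols: a row of the count table was kept when its Ensembl identifier mapped to a protein-coding mouse symbol made of Nduf, one of the letters a, b, c, s or v, and a digit. Assembly factors (Ndufaf genes) were thereby left out. The rule matched 37 of the 49671 gene rows, of which 21811 are protein-coding. Of the 37, 35 encode subunits of complex I. Ndufa4 carries the family name but encodes a subunit of complex IV, and Ndufa4l2 is its paralogue. 3 processed pseudogenes with a matching symbol were left out by the rule, the subunit Ndufab1 falls outside it, and Ndufb1 is not analysed here. The 37 genes lie on 15 chromosomes, and 2 of them, Ndufa1 and Ndufb11, are on the X chromosome.

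Complex I oxidises NADH in the mitochondrial matrix, passes the electrons along iron-sulfur clusters to ubiquinone, and pumps protons across the inner membrane. Its core subunits carry out this chemistry; those of the matrix arm are encoded in the nucleus and those of the proton-pumping membrane arm in the mitochondrial genome. The accessory subunits, all nuclear, surround the core, and many of them are needed for its assembly or stability. STAT3, the transcription factor deleted in the mutant embryos, acts downstream of the cytokine LIF, and has been reported to raise transcription of the mitochondrial genome in mouse embryonic stem cells.

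Promoter windows show the DNA next to which these genes start, from 250 bases before to 50 bases after the annotated start (RefSeq, build GRCm38.p6); 32 of the 37 genes had a window. Each window was searched on both strands for 4 letter patterns: GCGC and TGCGC with any 1 base between them, bound by NRF1, a known regulator of nuclear respiratory genes; AAGATGGCG, bound by YY1; CCGGAAG, bound by ETS factors such as GABP; and TTCNNNGAA, the general form bound by STAT proteins. The NRF1 pattern was in 7 of the 32 genes (21.9%, against 4.60% of the 32851 windows of all genes), the YY1 pattern in 5 (15.6% against 1.40%), the ETS pattern in 4 (12.5% against 8.86%) and the STAT pattern in 2 (6.25% against 8.30%). The median GC content of the windows was 59.0% for these genes and 52.7% for all windows. The 5 windows printed below are those of Ndufa10 and Ndufa9, the 2 subunits with the smallest p between the stages, of Ndufb6, which has the smallest p between the genotypes and between the lineages, of Ndufa8, the other gene with the STAT pattern, and of Ndufs6, which holds both the NRF1 and the YY1 pattern. Capitals mark the matches, none of which overlap, and all 5 genes lie on the minus strand, so each line reads in the direction of transcription. The window of Ndufa10 is chr1:92473709-92474008, in which no pattern was found. That of Ndufa9 is chr6:126849095-126849394 and holds the YY1 pattern. That of Ndufb6 is chr4:40279372-40279671 and holds the ETS pattern on the other strand and the STAT pattern at 2 places. That of Ndufa8 is chr2:36049289-36049588 and holds the NRF1 pattern and the STAT pattern at 2 places. That of Ndufs6 is chr13:73328433-73328732.
Ndufa10: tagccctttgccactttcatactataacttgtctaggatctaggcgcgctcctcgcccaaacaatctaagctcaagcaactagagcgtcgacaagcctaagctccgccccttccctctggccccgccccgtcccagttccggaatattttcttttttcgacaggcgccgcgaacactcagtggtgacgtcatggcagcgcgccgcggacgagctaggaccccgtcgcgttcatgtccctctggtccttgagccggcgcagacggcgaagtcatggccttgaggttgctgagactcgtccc
Ndufa9: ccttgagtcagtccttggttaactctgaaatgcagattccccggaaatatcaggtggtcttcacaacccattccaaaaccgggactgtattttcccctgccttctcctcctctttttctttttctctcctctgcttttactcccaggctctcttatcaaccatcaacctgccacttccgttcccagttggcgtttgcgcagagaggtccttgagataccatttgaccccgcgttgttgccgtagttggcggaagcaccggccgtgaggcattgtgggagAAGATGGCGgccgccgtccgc
Ndufb6: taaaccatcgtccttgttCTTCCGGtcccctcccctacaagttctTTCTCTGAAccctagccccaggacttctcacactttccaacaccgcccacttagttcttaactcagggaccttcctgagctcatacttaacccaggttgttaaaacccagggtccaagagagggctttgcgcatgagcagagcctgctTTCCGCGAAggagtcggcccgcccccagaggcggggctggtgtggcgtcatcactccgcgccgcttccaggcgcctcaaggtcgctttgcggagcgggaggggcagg
Ndufa8: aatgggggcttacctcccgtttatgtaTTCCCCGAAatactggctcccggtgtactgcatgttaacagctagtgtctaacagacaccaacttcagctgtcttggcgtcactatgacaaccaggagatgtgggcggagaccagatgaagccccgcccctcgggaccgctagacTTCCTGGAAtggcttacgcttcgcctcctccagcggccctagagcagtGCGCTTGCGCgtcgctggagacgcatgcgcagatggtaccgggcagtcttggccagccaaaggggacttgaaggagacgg
Ndufs6: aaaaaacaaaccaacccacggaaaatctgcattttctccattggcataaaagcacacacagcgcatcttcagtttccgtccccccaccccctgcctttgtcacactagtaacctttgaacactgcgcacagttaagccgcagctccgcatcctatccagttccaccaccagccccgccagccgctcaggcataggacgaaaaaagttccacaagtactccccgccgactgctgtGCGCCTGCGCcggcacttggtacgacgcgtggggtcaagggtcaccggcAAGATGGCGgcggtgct
A match shows that the letters are present in the window, and whether a protein binds there was not measured.

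RNA was sequenced from 171 single cells. Cells from the inner cell mass (ICM) at embryonic day 3.5 came from 5 wild-type embryos (WT, Stat3 +/+, 64 cells) and from 5 embryos without Stat3 (MUT, Stat3 -/-, 55 cells). At E3.75, epiblast (EPI) cells, whose lineage forms the fetus, came from 3 WT embryos (19 cells) and 4 MUT embryos (9 cells), and primitive endoderm (PrE) cells, whose lineage lines the yolk sac, came from 3 WT embryos (10 cells) and 4 MUT embryos (14 cells). For the EPI and PrE cells the titles say E3.75 but the source label says E3.5, and the stage was taken from the titles. No strain, Cre driver or culture step is given in the labels, and the null genotype applies to all cells of a MUT embryo. The embryo, read from the first number in the titles, is the replicate: the counts of an embryo's cells were added up within each lineage (24 sums, 17 embryos). EPI and PrE sums with the same genotype and number come from 1 embryo. Litters are not named in the labels.

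Total counts ran from 163822 to 25095390 per cell and from 8117787 to 122331780 per sum, and 2 sums (MUT EPI of embryo 2 and WT PrE of embryo 3) hold 1 cell each. Levels are CPM (an embryo's counts of a gene per 1000000 of its counts) after scaling of all 24 sums together by the trimmed mean of M values (TMM). They are shares of an embryo's RNA, so that less RNA of a subunit and more of other RNA cannot be told apart. Stat3 itself was at 44.9 to 102 CPM in WT ICM and 0.121 to 13.2 CPM in MUT ICM, at 87.0 to 164 against 0.0292 to 26.0 CPM in EPI, and at 24.9 to 133 against 9.79 to 21.2 CPM in PrE, so the genotype groups did not overlap in any lineage. Even so, the edgeR test did not call it: log2 differences were -3.50 in ICM (adjusted p = 0.684), -3.93 in EPI (0.972) and -2.86 in PrE (0.737). A genotype comparison without called members therefore does not show that the subunits are the same in both genotypes. All 10 EPI and naive markers were higher in EPI than in PrE in both genotypes, with medians of 2.40 (WT) and 4.24 (MUT) on the log2 scale, and all PrE markers tested were lower. One PrE sum stands apart: WT embryo 1 (3 cells) had trophectoderm markers at a summed 3927 CPM, with Krt8 at 2323 and Krt18 at 1229 CPM, against 117 to 368 CPM in the other 2 WT PrE embryos. It also had the lowest sum of PrE markers (1324 CPM, others 4114 and 4714) and the highest sum of EPI and naive markers (1604 CPM, others 351 and 581) of WT PrE. For comparisons with WT PrE the members' medians and the counts of groups that do not overlap are therefore also given without it, as are values of many of the members named. By the balance of Y-linked and Xist reads, the E3.75 MUT embryos were 4 males and the E3.75 WT embryos 1 male and 2 females. The E3.5 MUT embryos were 1 male and 4 females and the E3.5 WT embryos 3 males and 2 females. Genotype and sex therefore vary together at E3.75, which bears on the X-linked Ndufa1 and Ndufb11.

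Reads of the subunits were found in nearly every cell. In 5 of the 6 groups, 36 of the 37 genes had at least 1 read in every cell, and in WT ICM 33 did. After thinning each cell to 1000000 counts, 30 genes in WT ICM (61 cells) and 33 in MUT ICM (47 cells) had a read in every cell, and 36 did in each E3.75 group. Ndufa4l2, a paralogue known to be induced by low oxygen, was the exception, with a mean level no higher than 0.595 CPM in any group and a highest value of 2.38 CPM in MUT EPI embryo 4.

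Between genes, levels were compared per kilobase of transcript (CPM per kb). Within each group the highest of the 35 subunits exceeded the lowest by 10.6-fold to 16.7-fold, although the proteins are present in the complex in equal number. In the NADH module of the core, Ndufv2, which carries an iron-sulfur cluster, was highest in every group (193 to 338 CPM per kb), Ndufv1, which binds NADH and the flavin, was intermediate (108 to 196), and Ndufs1, which carries further iron-sulfur clusters, was lowest (61.1 to 99.3). In the ubiquinone module, Ndufs7, which lines the ubiquinone site, was highest in every group (317 to 476 CPM per kb). Group means of Ndufs3 (130 to 254) and of the iron-sulfur protein Ndufs8 (152 to 255) had similar ranges.

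Among the 9 accessory subunits of the matrix arm, Ndufa7 was highest in every group (538 to 607 CPM per kb) and Ndufv3 was lowest (47.2 to 79.2). Ndufs6, which binds zinc, lay at 340 to 472 and Ndufa2 at 320 to 447, whereas Ndufs4, loss of which is a known cause of Leigh syndrome in humans, lay at 71.5 to 96.3. Ndufa5 (157 to 380), Ndufa9 (133 to 316) and Ndufa12 (98.6 to 231) had group means more than 2-fold apart, and Ndufa6, a protein of the LYR family, lay at 233 to 265. Among the 9 of the proximal membrane arm, Ndufa11 (362 to 451 CPM per kb) was highest in 4 groups and Ndufa1 (231 to 429) in WT EPI and WT PrE. Ndufa3 lay at 198 to 339, Ndufa8, which has the twin-cysteine fold of intermembrane space proteins, at 188 to 340, Ndufc1 at 166 to 221 and Ndufc2 at 176 to 198. The lowest there was Ndufa13, also known as GRIM-19 and reported to bind STAT3 (95.8 to 145), in both ICM groups and MUT EPI, and Ndufa10, a subunit related to nucleoside kinases (85.1 to 200), in the other 3 groups. Among the 10 of the distal membrane arm, Ndufb8 (554 to 1047) was highest in 5 groups and Ndufb9 (492 to 710) in WT EPI, and Ndufb4 was lowest in every group (44.2 to 67.9). Ndufb6 (375 to 627) and Ndufb2 (303 to 422) followed the top pair. Ndufb3 (140 to 255), Ndufb5 (170 to 190), Ndufb7 (134 to 213), Ndufb10 (99.5 to 215) and Ndufb11 (112 to 171) made up the rest. Over the 6 groups, the mean of Ndufb5 varied by 1.12-fold and those of Ndufa7 and Ndufc2 by 1.13-fold, the least of the 35, and that of Ndufa5 by 2.42-fold, the most. The complex IV gene Ndufa4 reached 912 to 1060 CPM per kb. Ranked by level, the 37 genes kept nearly the same order between the genotypes in ICM (Spearman rho 0.955 over 37 genes) and among the 4 E3.75 groups (0.967 to 0.984), and a less similar one between ICM and the E3.75 groups (0.787 to 0.887). These are descriptions across genes measured in the same libraries.

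**Figure D1:**
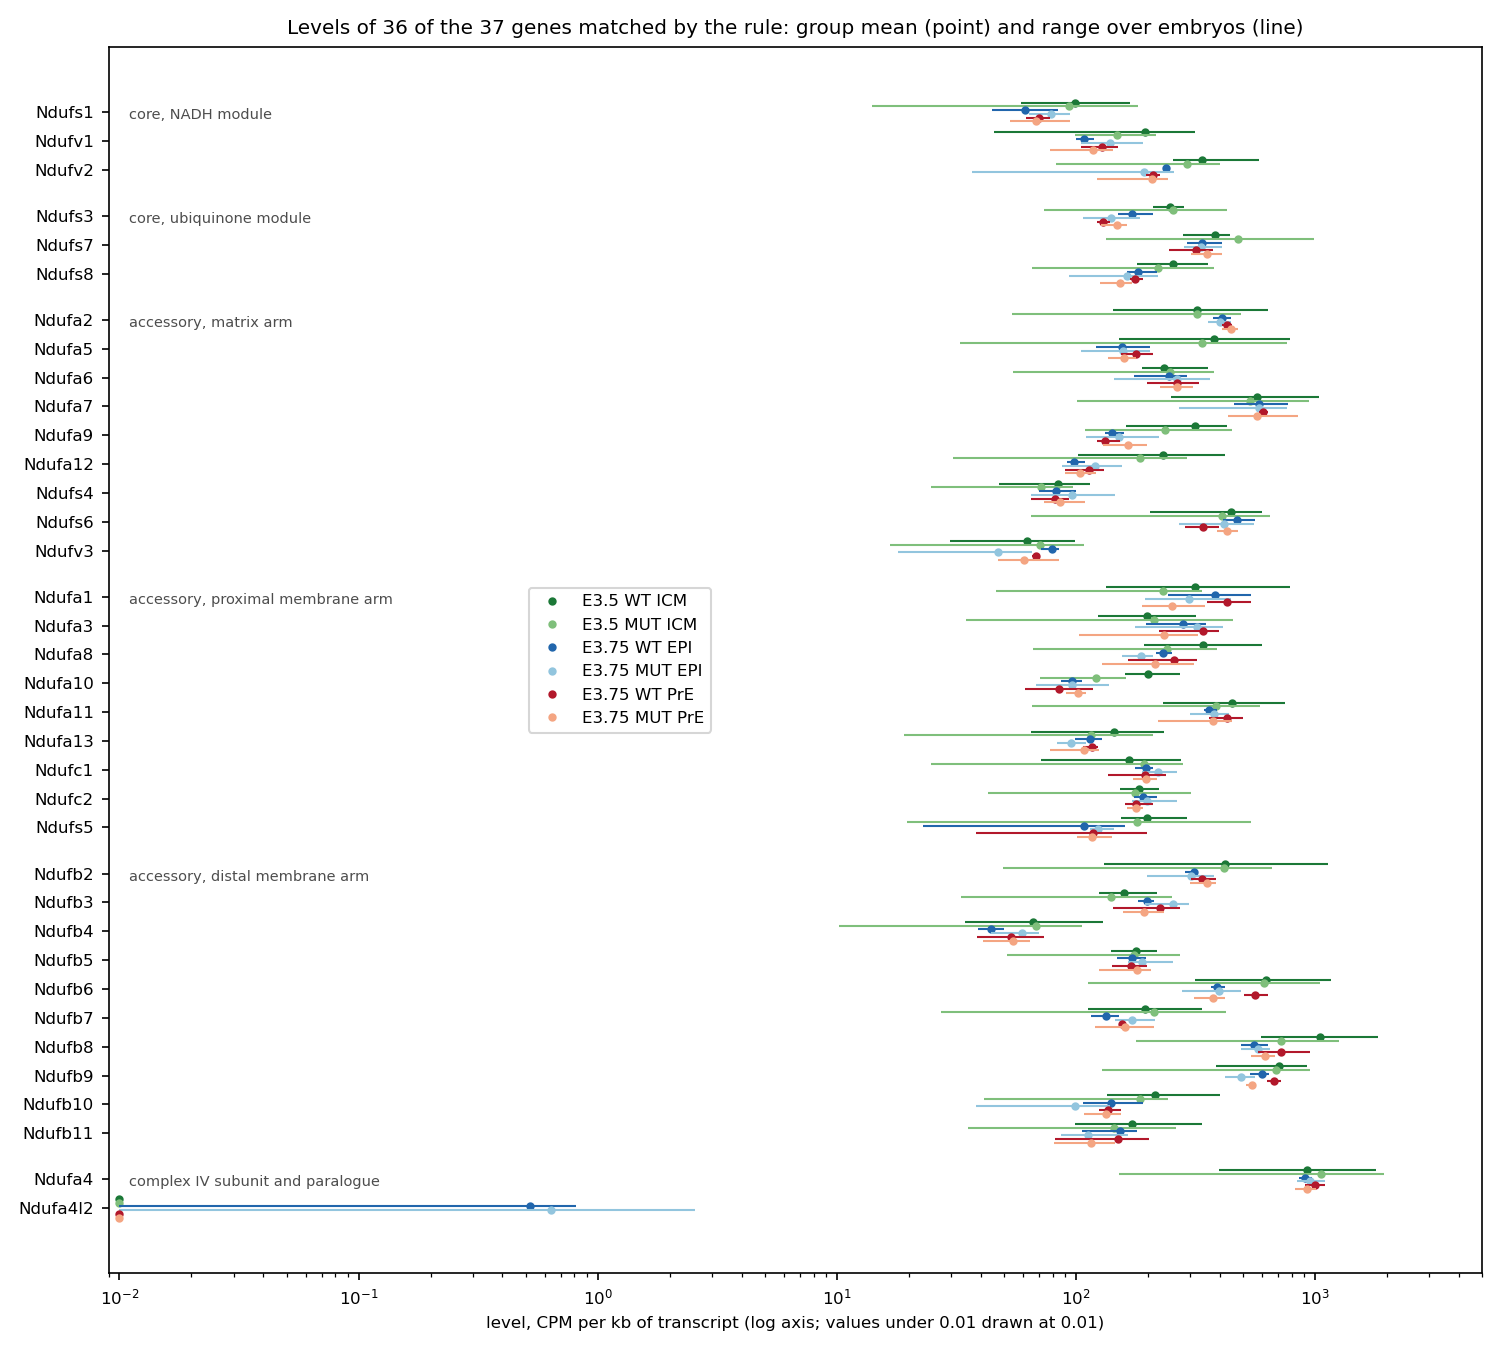
Level of 36 of the 37 genes in CPM per kb of transcript (log axis) in the 6 groups, ordered by role, with the group mean as a point and the range over embryos as a line. Ndufa4l2 is the only gene near 0, and for most genes the longest lines belong to the 2 ICM groups.

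The spread between embryos differed by stage. The median coefficient of variation over the 35 subunits was 41.4% in WT ICM and 56.5% in MUT ICM, against 13% in WT EPI, 24.3% in MUT EPI, 16.6% in WT PrE and 15.8% in MUT PrE. Summed over the 35 subunits, the share of an embryo's counts ran from 0.507% (embryo 13) to 1.08% (embryo 22) in WT ICM, and was 0.257% (embryo 10), 0.580% (embryo 18), 0.876% (embryo 2), 0.950% (embryo 23) and 0.972% (embryo 24) in MUT ICM. The WT and MUT ranges at E3.5 overlapped, with MUT embryo 10 below all other embryos. At E3.75 the share was 0.682% to 0.748% in WT EPI, 0.643% to 0.818% in MUT EPI and 0.717% to 0.745% in WT PrE. MUT PrE embryos fell into 2 pairs, embryos 1 and 2 at 0.593% and 0.603% and embryos 4 and 5 at 0.764% and 0.801%. The title letter follows the same pairs (letter B for embryos 1 and 2, letter A for embryos 4 and 5), so letter and embryo cannot be told apart there. Nuclear subunits of complexes II to V (48 genes) were 1.49% to 2.30% of counts in WT ICM and 1.01% to 2.45% in MUT ICM, again lowest in MUT embryo 10, and 1.77% to 2.32% at E3.75.

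**Figure D2:**
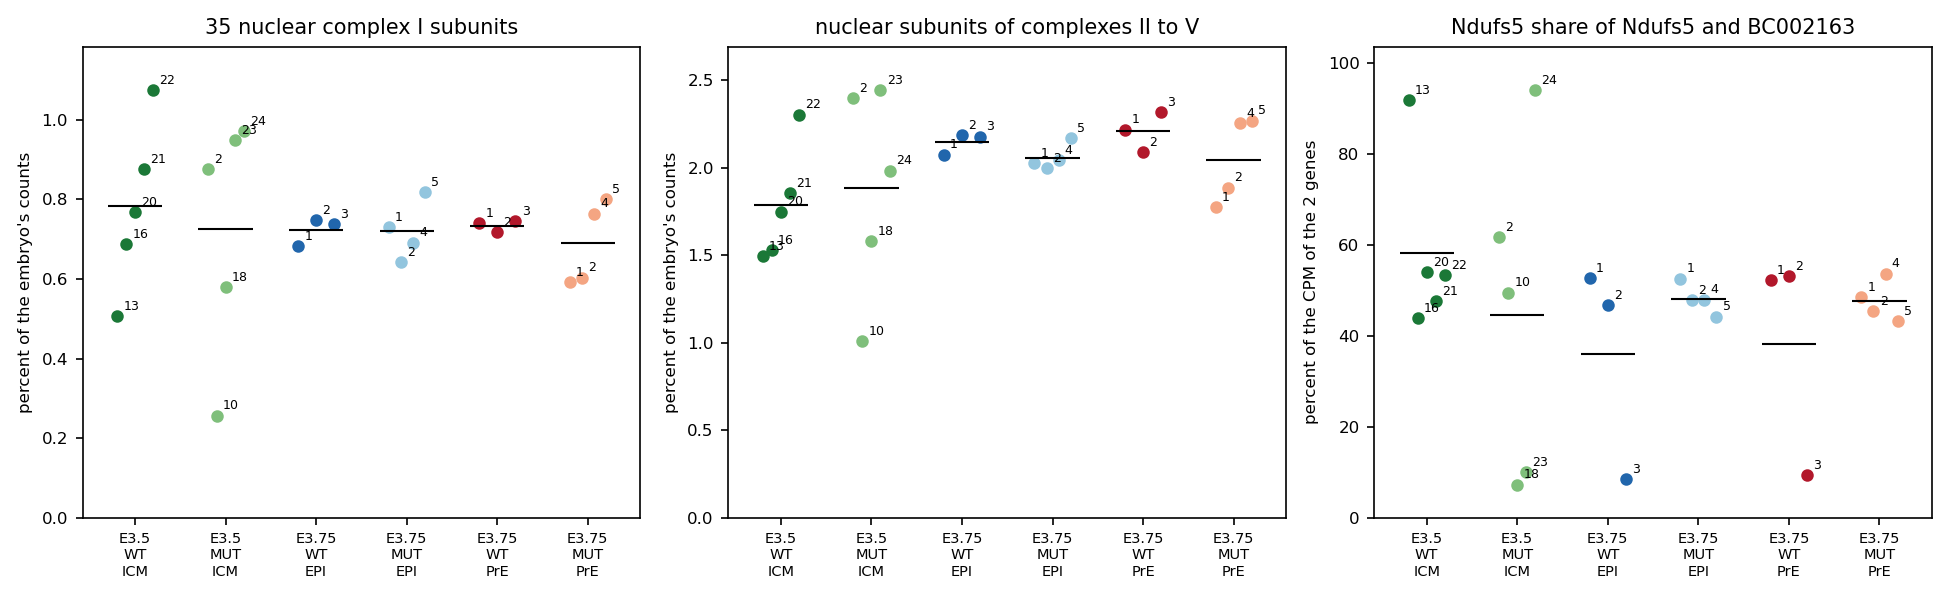
Percent of each embryo's counts in the 35 complex I subunits (left) and in nuclear subunits of complexes II to V (middle), and the share of Ndufs5 in the CPM of Ndufs5 and its copy BC002163 (right); points are embryos with their numbers and lines are group means. MUT ICM embryo 10 lies lowest in the left and middle panels, and in the right panel 3 embryos lie under 10% and 2 above 91%.

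In MUT ICM embryo 10, which gave 19 cells, 31 of the 35 subunits had their lowest level of the 10 E3.5 embryos, where the same embryo was lowest for 15.7% of the 7764 genes compared. The exceptions included Ndufs1 (lowest in MUT embryo 23), Ndufv1 (WT embryo 22) and Ndufs5 (MUT embryo 18). The difference from the median of the other embryos was larger for short subunits as a group, but did not follow length gene by gene. It was -2.86 for Ndufa13 (1251 bases) and -1.51 for Ndufs7 (758 bases). The median difference was -2.49 (log2) for the 22 subunits under 1 kb and -1.78 for the 13 longer ones, from -2.89 for Ndufa12 to 0.30 for Ndufs1, the longest subunit transcript at 2590 bases. Other genes under 1 kb (577 genes) had a median of -1.87 in this embryo and 95.3% of them were lower, whereas other genes of 1 kb or longer (6852 genes) had a median of 0.39 and 39.5% were lower. Of these other genes, 15.8% of the short and 4.36% of the long ones lay below the subunit median of their length class. The 19 cells of embryo 10 had subunit shares from 0.194% to 0.358%, with a median of 0.267%, whereas the median over cells was 0.435% to 1.28% in the other 9 E3.5 embryos, so the low share was found across its cells. Ribosomal protein genes and mitochondrial mRNA also had their lowest share of the E3.5 embryos there (2.10% and 2.35%). The part of RNA quality or library preparation in this was not tested. At the other end, WT ICM embryo 22 had the highest level for 17 of the 35 subunits, MUT embryo 24 for 9 and MUT embryo 2 for 6. These embryos were highest for 15.9%, 12.4% and 8.27% of the 7764 genes. Short transcripts in general were also high in embryo 22. Against the other embryos, other genes under 1 kb had a median of 0.71 (log2) there and the short subunits 0.99. For genes of 1 kb or longer these medians were -0.12 and 0.59. Embryo 22 had the highest summed share in WT ICM, but its 11 cells had a median of 0.71% (0.472% to 2.32%), below the cell medians of WT embryos 20 and 21 (0.735% and 0.867%) and of MUT embryos 2, 23 and 24 (1.28%, 0.896% and 1.08%). Its middle cell was thus not among the highest. For the comparisons with ICM, the members' medians and the members named are also given without embryo 10 or 22. Both embryos were set apart by these same subunit values. Leaving out embryo 10 therefore tends to raise the ICM levels of the subunits, and leaving out embryo 22 to lower them.

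**Figure D3:**
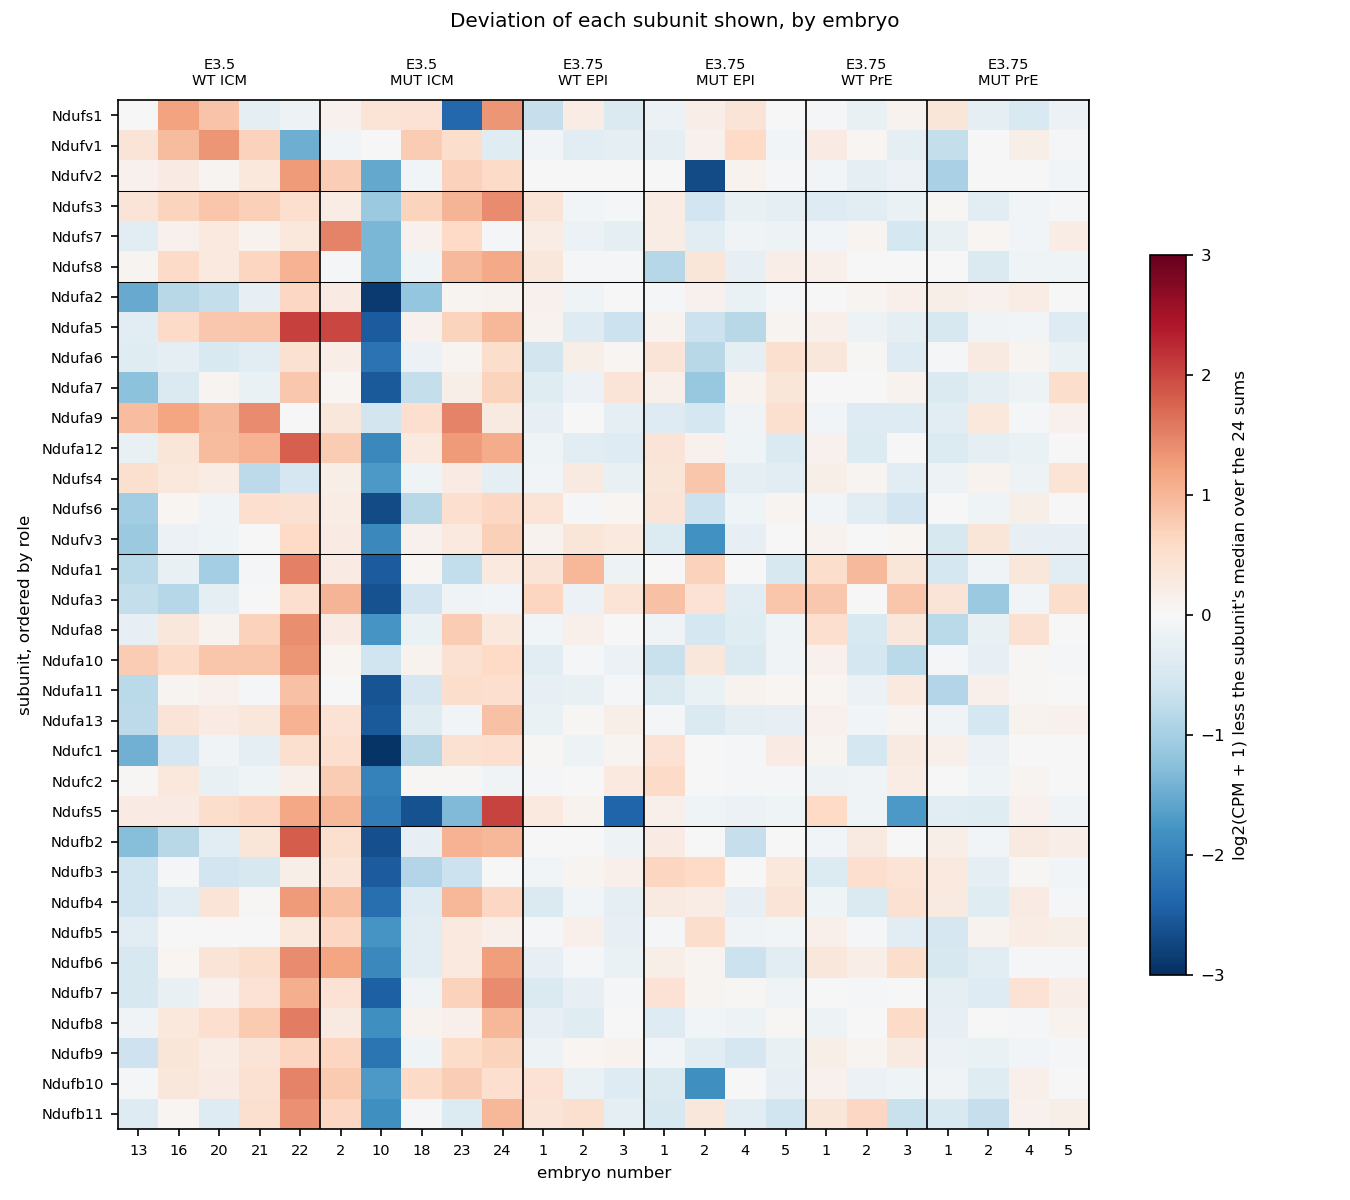
Deviation of each subunit shown (rows, by role) in each embryo (columns) from its own median over the 24 sums, on the log2(CPM + 1) scale. The column of MUT ICM embryo 10 is low (blue) in almost every row, WT ICM embryo 22 is high (red) in most, and the E3.75 columns are mostly pale, apart from single cells of the plot such as Ndufs5 in WT embryo 3 and Ndufv2 in MUT EPI embryo 2.

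Reads of Ndufs5 were shared with a copy. The processed pseudogene BC002163 on chromosome 16 matches the Ndufs5 transcript at 99.4% over 319 bases and holds 118% as many counts. The share of Ndufs5 in the CPM of the pair fell into 3 ranges: 7.25% to 9.97% in 3 embryos (MUT ICM 18 and 23 and WT E3.75 embryo 3), 43.2% to 61.7% in 12 embryos, and 91.8% and 94.1% in 2 embryos (WT ICM 13 and MUT ICM 24). In WT E3.75 embryo 3 the share was 8.42% in EPI and 9.35% in PrE. Among single cells with at least 20 reads of the pair, the 29 cells of the first 3 embryos lay between 1.28% and 17.4%, and the 17 cells of the last 2 between 86.2% and 98.9%. The 124 cells of the other 12 embryos were spread more widely, from 0% to 72.4% with a median of 49.9%, and 1 of them, in WT ICM embryo 21, lay under 20%. In WT EPI, Ndufs5 was at 84.2, 73.9 and 12.1 CPM in embryos 1, 2 and 3 (56.8 ± 39.0, SD, n = 3), whereas Ndufs5 and BC002163 together were at 154 ± 8.83 CPM. In MUT ICM, Ndufs5 alone spanned 10.3 to 283 CPM. The level of Ndufs5, which encodes a subunit of the intermembrane space side, is therefore uncertain in every group, and its test values are not interpreted. Why the reads divide this way was not tested. Ndufa12 (copy Gm15920, with 22.4% as many counts) and Ndufb4 (copy Ndufb4c, 4.72%) also have near-identical copies, and Ndufb5 shares 616 exon bases with Mrpl47 and Ndufb6 257 with Smim27 on the other strand. The sources used here do not say whether the counting used strand.

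The comparison of E3.75 lineages with E3.5 ICM asks how the subunits differ between the stages, and EPI and PrE are both set against the same ICM embryos. Title letters A to C occur only at E3.75 and D to H only at E3.5, so stage and letter cannot be told apart. Depth differed too: the median total per cell was 5064704.5 (WT) and 3404703 (MUT) in ICM, and 10407966 to 11168799 in the E3.75 groups. The part of letter and depth in the stage differences was not tested. In WT, most subunits lay lower at E3.75, but none passed the test: with edgeR's quasi-likelihood test and Benjamini-Hochberg adjustment at 0.05, 0 of 36 genes tested were called in EPI against ICM (0.308% of all genes were called) and 0 of 36 in PrE against ICM (0.349%). At an unadjusted p under 0.05, 7 of 36 stood out in EPI against ICM (14.1% of all genes) and 5 of 36 in PrE against ICM (14.8%). The members' median log2 difference was -0.41 in EPI (26 lower, 10 higher) against -0.14 for all genes tested, and -0.29 in PrE (27 lower, 9 higher) against -0.17. All 7 core subunits were lower in both, with medians of -0.73 (EPI) and -0.59 (PrE) in the NADH module and -0.53 and -0.62 in the ubiquinone module, while the 9 matrix accessory subunits had medians of 0.01 and -0.04. The distal membrane subunits had medians of -0.51 and -0.23, with 9 of 10 lower in each.

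These medians moved when embryos that stand apart were left out. Without WT ICM embryo 22 the members' median was -0.17 in EPI (23 lower, 13 higher; all genes -0.10) and -0.04 in PrE (20 lower, 16 higher; all genes -0.13), so that in PrE it lay above that of all genes. All 7 core subunits were still lower in both, with medians of -0.85 and -0.61 in the NADH module and -0.47 in each for the ubiquinone module. The matrix accessory subunits then had medians of 0.18 and -0.15, and the distal membrane subunits -0.18 and 0.08. Without WT E3.75 embryo 1 the PrE median was -0.29 (27 lower, 9 higher), again above that of all genes (-0.35). The PrE medians by role were then -0.73 in the NADH module, -0.64 in the ubiquinone module, -0.15 in the matrix accessory subunits and -0.23 in the distal membrane arm.

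Ndufa10 (ENSMUSG00000026260, chr1:92439010-92473860, minus strand) had the smallest p in both WT stage comparisons. Its level was 369, 324, 388, 387 and 551 CPM in WT ICM embryos 13, 16, 20, 21 and 22, was 175, 214 and 192 CPM in WT EPI embryos 1 to 3, and was 239, 152 and 124 CPM in WT PrE. All 5 ICM values lay above all 6 later ones. The edgeR difference was -1.09 (log2, SE 0.25, 2.13-fold lower, adjusted p = 0.0872) in EPI and -1.23 (SE 0.32, adjusted p = 0.135) in PrE. Without ICM embryo 22, its highest, the differences were -0.96 and -1.10.

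Ndufa9 (ENSMUSG00000000399, chr6:126821721-126849136, minus strand), an accessory subunit that sits beside the ubiquinone site and binds NADPH, was at 443, 529, 456, 621 and 235 CPM in WT ICM, with the low value in embryo 22, where 17 of the 35 subunits were highest. It was at 195, 229 and 192 CPM in WT EPI and 221, 176 and 178 CPM in WT PrE, so that the ICM range stayed above both by a narrow margin. The edgeR differences were -1.18 (SE 0.32, adjusted p = 0.134) and -1.25 (SE 0.34, adjusted p = 0.149). Without WT ICM embryo 22 the EPI difference was -1.35 and Ndufa9 passed the edgeR test (adjusted p = 0.0359, with 0.51% of all genes called). The PrE difference without it was -1.42 (edgeR adjusted p = 0.0520). Embryo 22 was set apart by the subunit values and holds the lowest ICM level of Ndufa9, so leaving it out raises the ICM level of this gene. The call without it is therefore no separate support for a stage difference.

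Ndufs3, a core subunit of the ubiquinone module, was at 220, 266, 297, 276 and 236 CPM in WT ICM, at 220, 157 and 164 CPM in WT EPI and at 128, 133 and 146 CPM in WT PrE. The PrE values were all below the ICM values, and EPI embryo 1 was level with the lowest ICM embryo. The edgeR difference was -0.93 (SE 0.27, adjusted p = 0.168) in PrE and -0.55 (SE 0.24, adjusted p = 0.348) in EPI. Without ICM embryo 22 these were -0.96 and -0.59. In EPI the largest differences in size were those of Ndufa5 (-1.29) and Ndufa12 (-1.25), 2 matrix accessory subunits with wide ICM ranges, 132 to 692 CPM for Ndufa5 and 113 to 466 CPM for Ndufa12. In PrE they differed by -1.08 and -1.01, less than Ndufa9 and Ndufa10. Both had their highest ICM level in embryo 22. Without it the differences were -0.84 (EPI) and -0.62 (PrE) for Ndufa5 and -0.93 and -0.69 for Ndufa12. Without WT E3.75 embryo 1 the PrE differences were -1.21 and -1.14.

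On CPM scaled within each comparison, 5 of 36 genes (Ndufa10, Ndufa9, Ndufb8, Ndufs3 and Ndufv2) had every WT EPI embryo below every WT ICM embryo, where 7.07% of all genes did. In WT PrE 4 of 36 did (Ndufa10, Ndufa9, Ndufs3 and Ndufv2; 8.32% of all genes). No member had every E3.75 embryo above the ICM embryos, where 8.37% (EPI) and 6.15% (PrE) of all genes did. On the CPM scaled over all sums together, the EPI separation of Ndufs3 was lost. Its highest WT EPI value was 220.17 CPM and its lowest WT ICM value 220.10 CPM. The place of Ndufs3 in the EPI count of 5 therefore depends on the scaling. Ndufv2 was at 447, 486, 433, 511 and 992 CPM in WT ICM, at 406, 403 and 407 CPM in WT EPI and at 382, 332 and 359 CPM in WT PrE. Its ICM range ends just above the E3.75 values, and the differences of -0.53 (EPI) and -0.67 (PrE) became -0.25 and -0.39 without embryo 22. Without that embryo 6 of 36 genes had every EPI value below ICM (10.2% of all genes) and 2 every value above (11.5%), and in PrE 5 lay below (11.5%) and 3 above (8.38%). Without WT E3.75 embryo 1, 7 of 36 lay below in PrE (12.2%) and 1 above (9.21%).

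Leaving out WT E3.75 embryo 1 gave -1.55 for Ndufa10, -1.37 for Ndufa9 and -0.90 for Ndufs3 in PrE against ICM, with 0 members called by edgeR. WT ICM sums held markers of both later lineages: the summed PrE markers (418 to 1302 CPM) lay above those of WT EPI (145 to 351 CPM) in every embryo, and the summed EPI and naive markers (2680 to 3571 CPM) above those of WT PrE (351 to 1604 CPM). The part of this makeup in the subunit differences was not tested. The stage differences depended on the test. DESeq2 on the same sums called 2 members in EPI against ICM, Ndufa10 (adjusted p = 0.00655) and Ndufa9 (adjusted p = 0.0175), both lower, with 7.65% of all genes called. In PrE against ICM it called 3, Ndufs3 (adjusted p = 0.0147), Ndufa10 (0.0181) and Ndufa9 (0.0268), with 9.08% of all genes called. A limma-trend fit used each embryo's mean over cells of log2(CPM + 1), so cells were weighted equally, and it had no TMM scaling. Its medians were positive, 0.29 against 0.68 for all genes in EPI and 0.34 against 0.56 in PrE, so the members still lay below all genes. Which of these changes, or the lower depth of the E3.5 cells, moved the medians was not tested. In that fit the difference of Ndufa10 was -0.13 in EPI and -0.40 in PrE, and 1 member was called, Ndufb3, higher in EPI than in ICM (0.99, adjusted p = 0.0420, with 29% of all genes called). In PrE it called 0 members (15.7% of all genes).

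In MUT embryos the same 2 comparisons called 0 of 36 genes each by edgeR (0.0682% and 0.507% of all genes) and 0 had an unadjusted p under 0.05 (8.08% and 9.46% of all genes). DESeq2 also called 0 of 36 in each (3.53% and 4.62% of all genes), as did limma-trend (1.9% and 5.23%), in which the medians were again positive, 0.41 against 0.65 for all genes in EPI and 0.27 against 0.54 in PrE. The medians were -0.35 in EPI against ICM (26 lower, 10 higher; all genes -0.06) and -0.27 in PrE against ICM (28 lower, 8 higher; all genes -0.06). The smallest p values were those of Ndufs3 (-0.91, SE 0.49, adjusted p = 0.708 in EPI; -0.81, SE 0.46, adjusted p = 0.667 in PrE) and Ndufa5 (-1.16 and -1.14). Ndufs3 was at 195, 77.3, 266, 339 and 450 CPM in MUT ICM embryos 2, 10, 18, 23 and 24, at 194, 112, 143 and 136 CPM in MUT EPI embryos 1, 2, 4 and 5, and at 171, 133, 158 and 162 CPM in MUT PrE. The low embryo 10 put the ICM range across both later groups. Without it the medians were -0.59 (all genes -0.03) and -0.54 (all genes -0.01). Then 9 of 36 genes in each had an unadjusted p under 0.05 (10.7% of all genes in EPI, 14.7% in PrE) and 0 were called by edgeR (0.157% and 1.5%). Ndufs3 differed by -1.17 (adjusted p = 0.221) and -1.10 (adjusted p = 0.117) in that fit, and Ndufa5 by -1.47 in both. With embryo 10, no member had all later embryos above or all below the MUT ICM embryos (2.08% and 2.82% of all genes in EPI, 3.56% and 3.11% in PrE). Without it 4 of 36 lay wholly below ICM in EPI (5.31% of all genes) and 6 in PrE (6.41%), among them Ndufs3, Ndufb8 and Ndufb10 in both, and 0 lay above (4.52% and 7.73%). Embryo 10 was set apart by its low subunit levels. The direction of the changes without it follows from that choice, so they are no separate support for a stage difference.

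**Figure D4:**
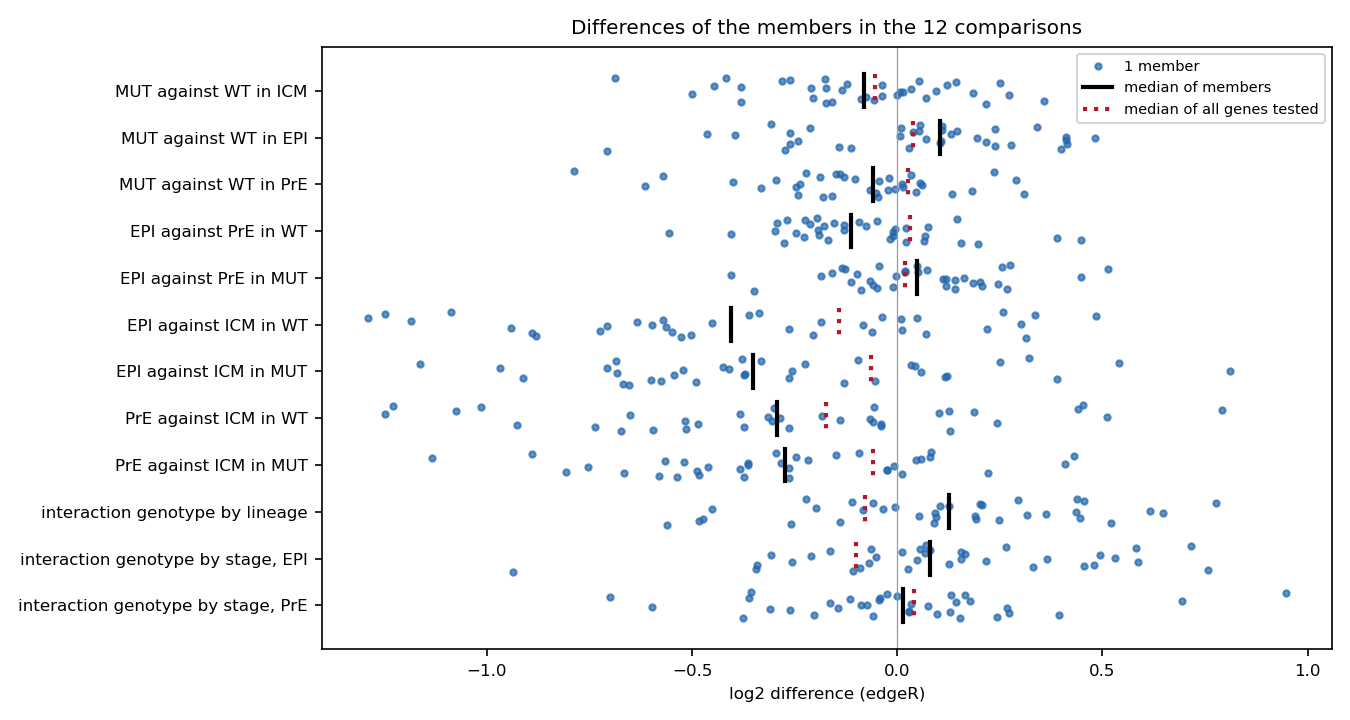
edgeR log2 difference of each gene shown (points) in the 12 comparisons, with the median of the members (black line) and of all genes tested (red dotted line). The members' medians lie furthest below 0 in the 4 comparisons with ICM, from -0.27 to -0.41, and between -0.11 and 0.13 elsewhere.

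Between genotypes in ICM, which asks whether the subunits depend on Stat3 at E3.5, 0 of 36 genes were called by edgeR (0% of 12270 genes), 0 by DESeq2 (0.88% of all genes) and limma-trend (0.0163%), and 0 had an unadjusted p under 0.05 (6.64% of all genes). No member had all MUT embryos above or all below the WT embryos (0.587% and 1.02% of all genes). The median MUT minus WT difference was -0.08 (23 lower, 13 higher; all genes -0.05). Ndufa10 had the smallest p. Against the WT values given above, 324 to 551 CPM, it was at 226, 144, 235, 299 and 328 CPM in MUT ICM embryos 2, 10, 18, 23 and 24, so that 4 of the 5 MUT embryos were below all WT embryos and embryo 24 was above WT embryo 16. The edgeR difference was -0.69 (SE 0.35, adjusted p = 0.776), and it was -0.48 without MUT embryo 10 and -0.56 without WT embryo 22. The X-linked genes differed by -0.42 (Ndufa1) and -0.21 (Ndufb11), turned positive without WT embryo 22 (0.25 and 0.18), and were at -0.10 and 0.09 without MUT embryo 10. Ndufa1 was at 329 CPM in that embryo and at 56.3 to 112 CPM in the other 4 WT embryos, against 19.4 to 141 CPM in MUT.

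The direction of the ICM median changed with single embryos. Without MUT embryo 10, 28 of 36 genes were higher in MUT and the median was 0.22 (all genes -0.06). Without WT embryo 22, 24 of 36 were higher and the median was 0.10 (all genes -0.01). Both embryos were set apart by their subunit levels, so the direction of these shifts follows from that choice. With RLE scaling in place of TMM the median was 0.02 (all genes 0.03). Title letters at E3.5 each hold several embryos, but apart from H not all of them. The MUT cells of letter F, for example, come only from embryos 10 and 18. Within single letters the median was -0.03 (letter D), 0.24 (E), -1.25 (F), -0.11 (G) and 0.29 (H). Its sign was not the same within letters, and letter and the embryos compared vary together. The median SE of a member in this comparison was 0.51 (log2), against 0.26 in EPI and 0.24 in PrE, so a difference has to be larger in ICM to stand out from the spread between embryos. Lineage markers also lay apart by genotype in ICM, although none was called. The 10 EPI and naive markers summed to 2680 to 3571 CPM in WT embryos and to 677 to 1476 CPM in MUT embryos, with 8 of 10 lower (median -1.14), and the PrE markers to 418 to 1302 CPM and 200 to 4280 CPM. None of these markers was at 0 in all embryos of a group, and their part in the subunit values was not tested.

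In EPI, the genotype comparison called 0 of 37 genes by edgeR (0% of 12298 genes), 0 by DESeq2 (1.52% of all genes) and limma-trend (0%), and 0 at an unadjusted p under 0.05 (4.63% of all genes). The median was 0.10 (26 higher, 11 lower; all genes 0.04). The smallest p values belonged to Ndufb3 (0.41, SE 0.23, adjusted p = 1.0) and Ndufv3 (-0.71, SE 0.40, adjusted p = 1.0). Ndufb3 was at 139, 154 and 162 CPM in WT and 228, 222, 148 and 181 CPM in MUT, with MUT embryo 4 inside the WT range. Ndufv3 was at 113, 135 and 128 CPM in WT and 78.6, 28.6, 87.8 and 104 CPM in MUT, all below WT, the lowest in the embryo with 1 EPI cell. Ndufa8 was the other gene whose groups did not overlap, at 186, 217 and 197 CPM in WT and 182, 135, 153 and 178 CPM in MUT, a difference of -0.26. These 2 of 37 compare with 5.42% of all genes whose MUT values were all lower, and no member had all MUT values higher (2.2% of all genes).

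In PrE, 0 of 36 genes were called by edgeR (0% of 11765 genes) and 0 by DESeq2 (1.33% of all genes) and limma-trend (0%), with 3 at an unadjusted p under 0.05 (4.63% of all genes). The median was -0.06 (24 lower, 12 higher; all genes 0.03). Ndufb6 (ENSMUSG00000071014, chr4:40270591-40279421, minus strand), of the distal membrane arm, was at 365, 332 and 418 CPM in WT PrE and 205, 229, 279 and 276 CPM in MUT PrE, so that all MUT values were below WT (edgeR -0.61, SE 0.17, adjusted p = 0.940). Ndufa1, a small membrane subunit needed for assembly, was at 165, 225 and 148 CPM in WT and 79.5, 106, 145 and 92 CPM in MUT, again all below WT (-0.79, SE 0.27, adjusted p = 0.975). Ndufb9 was at 473, 446 and 506 CPM in WT and 370, 364, 399 and 401 CPM in MUT (-0.33, SE 0.13, adjusted p = 1.0). These 3 of 36 genes did not overlap between genotypes, where 3.29% of all genes had all MUT values lower, and no member had all MUT values higher (3.43%). Without WT embryo 1, whose PrE sum held trophectoderm markers, the differences were -0.61 for Ndufb6, -0.83 for Ndufa1 and -0.31 for Ndufb9, with 0 members called and a members' median of -0.02 (all genes 0.11). In that setting 4 of 36 genes had all MUT values lower (5.97% of all genes) and 3 all higher (6.48%). Trophectoderm markers summed to 117 to 3927 CPM in WT PrE and 143 to 1099 CPM in MUT PrE, where Cdx2 and Elf5 were at 0 in all embryos, and their part was not tested. Across all alternatives the Ndufb6 difference stayed between -0.78 and -0.51 and its adjusted p between 0.150 and 1.0.

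The X-linked genes were lower in MUT in both E3.75 lineages, where the MUT embryos were all male. Ndufa1 differed by -0.31 in EPI and -0.79 in PrE, and Ndufb11 by -0.39 and -0.40 (edgeR). With embryo sex in the model these became 0.34 and -0.51 for Ndufa1 and 0.14 and 0.48 for Ndufb11, so 3 of the 4 turned positive. WT embryo 3 was the only male WT embryo at E3.75, so the genotype difference in that model rests on it, and its PrE sum is 1 cell. Genotype and sex are thus not separated by that model. Without WT embryo 1 the PrE difference of Ndufb11 was -0.29. Ndufb11 was at 155, 164 and 96.3 CPM in WT EPI and 84.8, 151, 92.7 and 78.5 CPM in MUT EPI, and at 152, 184 and 74.1 CPM in WT PrE and 85.4, 73.5, 130 and 133 CPM in MUT PrE. The lowest WT value, in embryo 3, lay within the MUT range in both lineages.

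**Figure D5:**
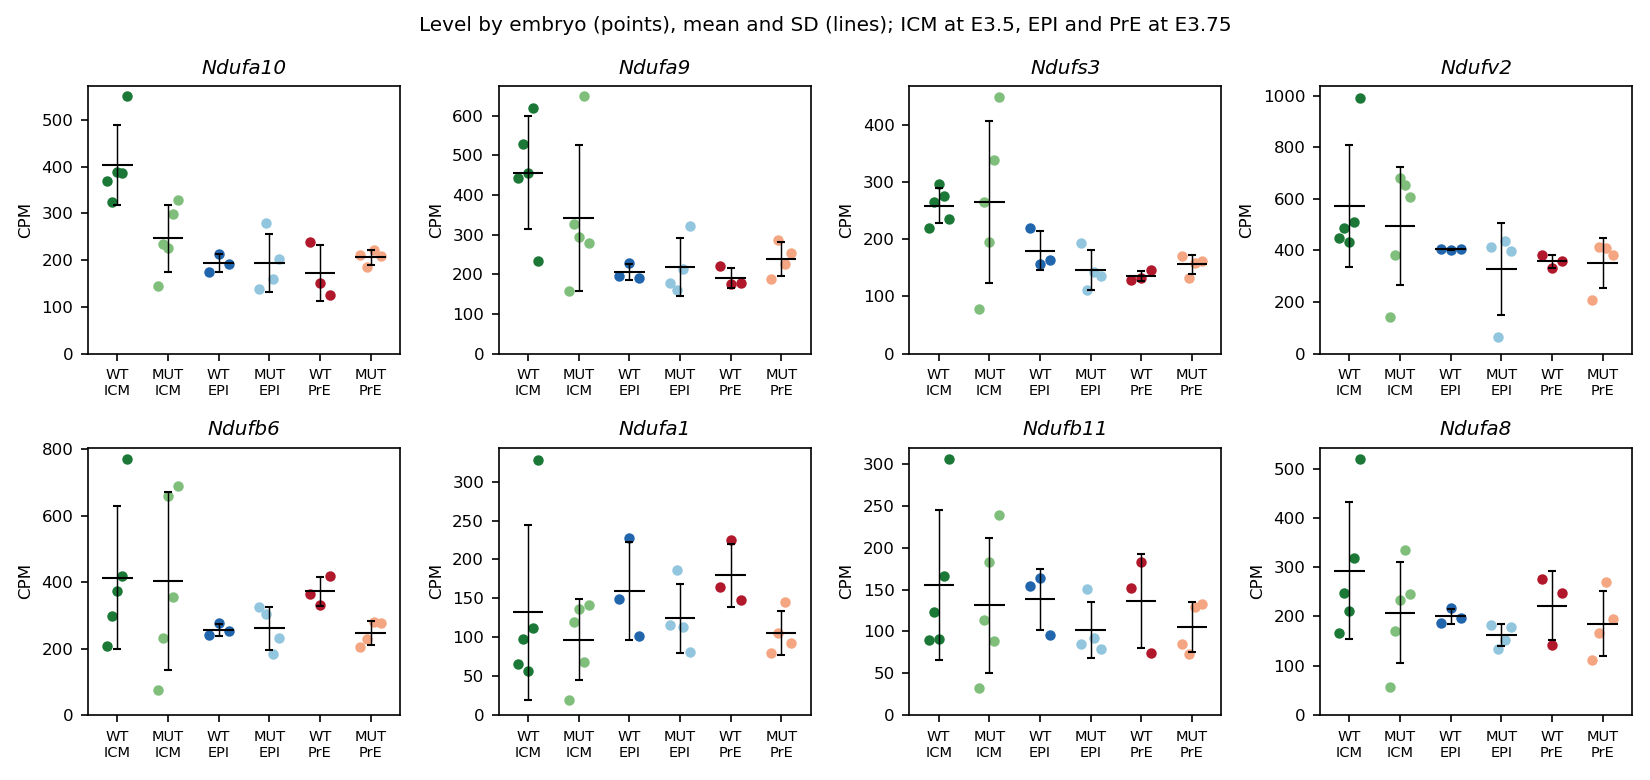
Level of 8 subunits in CPM by embryo (points) in the 6 groups, with mean and SD as lines. Ndufa10 is highest in WT ICM (324 to 551 CPM), and in PrE the WT values of Ndufb6 and Ndufa1 lie above the MUT values.

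Between the 2 lineages of the same E3.75 embryos, no subunit passed the test. In WT, 0 of 36 genes were called by edgeR (0.0314% of all genes), 0 by DESeq2 (5.71%) and limma-trend (0.055%), and 1 had an unadjusted p under 0.05 (9.35% of all genes). The EPI minus PrE median was -0.11 (26 lower in EPI, 10 higher; all genes 0.03). Ndufb6 had the smallest p: its WT EPI values of 241, 277 and 253 CPM were all below the WT PrE values of 365, 332 and 418 CPM (-0.56, SE 0.17, adjusted p = 0.304). Ndufs6 was at 320, 235 and 249 CPM in WT EPI and 227, 190 and 162 CPM in WT PrE, higher in EPI in 3 of 3 embryos (0.45, SE 0.22, adjusted p = 0.677). Without WT embryo 1 the differences were -0.51 (Ndufb6) and 0.45 (Ndufs6), again with 0 members called, and the median was -0.05 (20 lower, 17 higher; all genes 0.12). On CPM scaled within the comparison, Ndufs3 and Ndufv2 had all EPI values above PrE (11.1% of all genes) and Ndufb6 and Ndufb7 all below (7.37%). Without WT embryo 1, which leaves 2 embryos, 8 of 37 genes lay above (28.2% of all genes) and 10 below (17.2%).

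In MUT, 0 of 36 genes were called between the lineages by edgeR (1.65% of all genes), 0 by DESeq2 (5.9%) and limma-trend (3%), and 0 had an unadjusted p under 0.05 (10.2% of all genes). The median was 0.05 (21 higher, 15 lower; all genes 0.02). Ndufb3 had the smallest p, at 228, 222, 148 and 181 CPM in MUT EPI and 179, 120, 150 and 139 CPM in MUT PrE, higher in EPI in 3 of 4 embryos (0.45, SE 0.23, adjusted p = 0.591). Ndufa3 followed (0.51, SE 0.39, adjusted p = 0.813). Ndufb6 was at 324, 303, 183 and 232 CPM in MUT EPI, higher than PrE in 2 of 4 embryos. In MUT no member had all EPI values above or all below the PrE values (4.36% and 5.88% of all genes).

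Whether the genotype difference itself varied was tested as an interaction. For EPI against PrE, 0 of 37 genes were called (0% of 14220 genes), and Ndufb6 had the smallest p (0.65, SE 0.30, adjusted p = 0.905). For EPI against ICM, 0 of 37 were called (0% of 15756 genes), with Ndufa10 first (0.72, SE 0.45, adjusted p = 0.696). For PrE against ICM, 0 of 36 were called (0% of 15614 genes), with Ndufa10 first again (0.95, SE 0.44, adjusted p = 0.524). DESeq2 called 0 members in each of the 3 (2.34%, 3.18% and 3.41% of all genes) and so did limma-trend (0% each), and by edgeR 1, 0 and 1 had an unadjusted p under 0.05 (5.51%, 9.25% and 9.2% of all genes). The last 2 comparisons share the ICM embryos. The medians were 0.13, 0.08 and 0.01, against -0.08, -0.10 and 0.04 for all genes. The last 2 were -0.20 and -0.28 without MUT ICM embryo 10 (all genes 0.01 and 0.13) and -0.15 and -0.22 without WT ICM embryo 22 (all genes -0.16 and -0.02). Without WT E3.75 embryo 1 the 3 medians were 0.02, 0.08 and 0.03 (all genes -0.19, -0.05 and 0.19). Leaving out 1 embryo at a time gave 0.45 to 0.86 for Ndufb6 in the first interaction. The difference of Ndufa10 between the genotypes is therefore not shown to differ between the stages.

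Of the 22 complex I assembly factors listed, 21 were tested, and 0 were called by edgeR in any of the 12 comparisons; their median was -0.44 between genotypes in ICM, -0.11 in EPI and -0.07 in PrE. Of the 7 mitochondrially encoded subunits, 6 or 7 were tested and 0 were called in any comparison, with medians of 0.06, 0.11 and -0.29 between genotypes. Of the 11 regulators of nuclear respiratory genes listed, 1 was called in 1 comparison, Esrrb, a pluripotency factor as well, higher in EPI than in PrE in MUT (2.66).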

How the data were processed

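The deposited table holds raw read counts per Ensembl gene and cell, with 1 cell per sample. Per the submitters' processing notes, the authors used STAR and HTSeq and the mouse build mm10; versions, strand setting and duplicate handling are not stated in these notes. Whole-number counts of 171 cells (163822 to 25095390 per cell) were used as deposited, and 49412 of 49671 rows were matched to GENCODE vM21 (mm10), which gave symbols, lengths and positions.

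Counts were summed per embryo and lineage and tested with edgeR 4.0.16 (R 4.3.3; quasi-likelihood, robust, TMM scaling, genes filtered by filterByExpr at min.count 10), over all genes that passed the filter, with Benjamini-Hochberg adjustment at 0.05. Each comparison was fitted on its own groups. The standard error is the log2 difference divided by the square root of F. Levels are CPM under 1 TMM scaling of all 24 sums, divided by the length of the shortest principal coding transcript where genes are compared. For thinning, each cell was drawn down to 1000000 counts. Copies were searched with BLAST 2.17.0 (at least 200 bases at 95% identity). A low-depth cell lay more than 3 median absolute deviations under the median. The fits were also run on simulated counts with known changes and the same dispersion for every gene. Those counts held no shifts shared by many genes of an embryo, so they do not stand for the E3.5 embryos. DESeq2 1.42.0, limma 3.58.1 (limma-trend, with cells weighted equally), another scaling, no filter, leaving out low-depth cells, each embryo in turn, sex, title letter and blocks were run as alternatives. Python 3.11.15, pandas 2.3.3, NumPy 2.4.6, SciPy 1.17.1 and matplotlib 3.10.9 made the other values.

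EPI and PrE sums of the same E3.75 embryo are paired by the titles. The correlation of their deviations from the group means was 0.141, 0.123 and 0.0582 in WT and 0.0552, 0.0660, 0.0947 and 0.107 in MUT. With the embryo as a block, 0 genes were called in WT (4 without it) and 74 in MUT (177 without it), and 0 members in either.

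The members, the gene lists and the rule for named genes (in each comparison, up to 6 called members or, where fewer than 2 were called, the 2 with the smallest p; the X-linked members; the highest and lowest per kb of each role; for other lists, up to 3 called genes) were chosen with earlier results of these data known. Other members are named for groups that did not overlap, for the size of their difference, or for a shared copy, after their values were seen. The values of 1 member, which is in all counts and medians, are not reported here. Intervals and p-values cover the spread between embryos, and litters were not named.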

Additional observations from a re-analysis of the deposited data

Results flagged for a closer look

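In groups of 4 or 5 embryos, 149 sets of values were checked for a highest or lowest embryo set far apart from the others (Dixon's test at the 95% level), and 13 were found. For independent sets chance gives about 1 in 20. These sets are genes measured in the same embryos, so no excess over chance is read from the count. In WT ICM, embryo 22 was the high one for 6 subunits: Ndufv2 at 992 CPM, Ndufa10 at 551, Ndufb2 at 515, Ndufa1 at 329, Ndufb10 at 292 and Ndufa6 at 211 CPM. This embryo also had the highest subunit share of the E3.5 embryos (1.08%). In MUT ICM, Ndufb10 was set apart at 30.2 CPM in embryo 10, the embryo in which 31 of 35 subunits were lowest.

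In MUT EPI, embryo 2, which is 1 cell, was high for Ndufb5 (276 CPM) and low for Ndufv2 (62.7 CPM, where the other 3 embryos had 397 to 438 CPM). Embryo 1 was high for Ndufc2 (182 CPM) and for Ndufs5 (76.0 CPM), whose reads are divided with a copy. Embryo 4 was high for Ndufa4l2 at 2.38 CPM. In MUT PrE, Ndufv2 was low in embryo 1, at 208 CPM against 382 to 413 CPM in the other 3. Causes were not tested.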

How the results depend on the processing

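No alternative gave a called member except in the WT stage comparisons: DESeq2 called 2 in EPI against ICM and 3 in PrE against ICM, limma-trend called 1 in EPI against ICM, and leaving out 1 embryo gave 0 to 1 there. Over all genes the calls differed far more: DESeq2 called 108 genes between genotypes in ICM, 187 in EPI and 157 in PrE (edgeR 0 each), 1069 in EPI against ICM in WT (edgeR 43) and 1198 in PrE against ICM in WT (edgeR 46). The members' median less that of all genes was 0.07 in the EPI genotype comparison, -0.09 in PrE, -0.14 between lineages in WT, -0.12 and -0.22 in PrE against ICM (WT, MUT) and 0.20 in the genotype by lineage interaction. With no low-count filter it was 0.23 in the EPI genotype comparison, -0.29 between lineages in WT, 0.32 in PrE against ICM in WT and 0.38 in the interaction. With embryo sex in the model it was -0.56 in the PrE genotype comparison, -0.28 between lineages in WT, -1.33 in PrE against ICM in MUT and 0.34 in the interaction. The first of these rests on WT embryo 3 and the third on MUT ICM embryo 23 (4 cells), each the only male on its side. Only letter A holds both genotypes at E3.75, with WT embryo 3 as its only WT embryo. With the title letter the members' median less that of all genes was -0.40 in the PrE genotype comparison. Leaving out 1 embryo gave -0.21 to -0.030 there and 0.10 to 0.39 in the interaction, in both the value farthest from 0 without WT embryo 2. The embryo as a block (an alternative added after seeing the data) gave -0.36 between lineages in WT and 0.52 in the interaction.

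WT and MUT E3.75 embryos share only numbers: same-numbered sums had correlations of 0.127 and -0.0177 in EPI and 0.0324 and -0.0667 in PrE. With that number as a replicate block the genotype median was 0.32 in EPI and -0.04 in PrE, and 0 genes were called.

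Single members changed sign as follows. In the ICM genotype comparison, Ndufa10 was 0.67 in letter G, Ndufa1 was 0.44 in letter E and 0.35 in letter H, and Ndufb11 was 0.062 in letter D and 0.46 in letter E. Of these letters only H holds cells of all E3.5 embryos. Leaving out 1 embryo gave -0.62 to 0.25 for Ndufa1 and -0.52 to 0.18 for Ndufb11 in ICM, and -0.61 to 0.025 for Ndufa1 in EPI. With embryo sex, Ndufa1 was 0.34 and Ndufb11 0.14 in EPI, and Ndufb11 was 0.48 in PrE and 0.78 there with the title letter. In these fits the WT side of the genotype difference rests on embryo 3. In EPI against ICM in WT, limma-trend gave 0.13 for Ndufv2. The causes were not tested. Sums of 1 to 3 cells at E3.75 and the wide spread at E3.5 limit what can be detected.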
